A study of Mus musculus with 18 samples.

Results

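Cytochromes P450 of families 1 to 4 are the heme enzymes of the endoplasmic reticulum that oxidise drugs, fatty acids and steroids. The members were all genes whose symbol is Cyp followed by a family number from 1 to 4, a subfamily letter and a gene number, and which had at least 10 counts in 3 libraries of at least 1 table. Of 75 such symbols listed among 25915 gene symbols, 49 reached this level. In the table of 0 h and 3 h, 46 did, in that of 6 h and 12 h 43, in that of the antibody groups 47, and 41 did in all 3. Cyp2a4, Cyp2c69 and Cyp4f37 qualified through the antibody table alone. Just inside the threshold were Cyp2u1 and Cyp2c69, each with a highest third-ranked count of 14.0 in any table, and just outside were Cyp2a22 with 8.54, Cyp2c39 with 8.30 and Cyp2w1 with 8.10.

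RNA was sequenced from Kupffer cells, the macrophages of the liver sinusoids, of wild-type C57BL/6J mice in a study of acetaminophen, a drug whose overdose injures hepatocytes. The 18 libraries form 6 groups of 3. A time course holds 0 h, 3 h, 6 h and 12 h, all labelled as acetaminophen treated, although the 0 h columns are named for PBS, so that group is described by its time only. A further pair of groups received acetaminophen with IgG or with an antibody to CD41, a platelet surface integrin subunit, and these carry no time label. Cells were obtained by collagenase perfusion, removal of hepatocytes by slow centrifugation, a density gradient and brief adherence to a dish. The labels do not say whether replicates came from separate animals, so p-values here measure the spread between these samples, which may be technical.

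The preparations held Kupffer cell RNA together with RNA of other liver cells. All 10 Kupffer cell markers, 8 sinusoidal endothelial markers and 12 hepatocyte reference genes (Alb, Apoa1, Apoa2, Apoc3, Apoh, Ttr, Ahsg, Rbp4, Ambp, Vtn, Serpinc1 and Gc) reached at least 1 CPM (the count divided by the library total and multiplied by 1000000) in every library. The summed Kupffer cell markers ranged from 9517 to 21930 CPM, and Alb alone from 457.5 to 3431 CPM. The libraries of the 0 h and 3 h table held between 18644358 and 19954270 counts, those of the second time-course table between 19024975 and 20583099, and the antibody libraries between 28017439 and 38382509. In such bulk samples, fewer cells of a type and less RNA per cell cannot be told apart.

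P450 enzymes take electrons from the reductase encoded by Por to insert an oxygen atom into their substrates, and hepatocytes carry most of the drug-oxidising forms. Cyp2e1, with Cyp1a2 and Cyp3a11, converts acetaminophen to the reactive quinone imine that depletes glutathione. Expression is zonated along the liver lobule: Cyp2e1, Cyp1a2, Cyp2a5 and Cyp2c29 are known from hepatocytes around the central vein and Cyp2f2 from those near the portal tract. Some members are known from other cells, such as Cyp4f18, which inactivates leukotriene B4 in mouse neutrophils. A list of 11 members known also outside hepatocytes (Cyp1a1, Cyp1b1, Cyp2j9, Cyp2r1, Cyp2s1, Cyp2u1, Cyp4b1, Cyp4f16, Cyp4f18, Cyp4v3 and Cyp4x1) is treated apart from the other 38, which are called hepatocyte-type here. That name means only that a gene is not on the list. Scaled to all genes, Cyp2d22, Cyp2t4, Cyp4f13 and Cyp4f17 of these 38 were higher at 3 h than at 0 h. In that comparison 11 of the 12 hepatocyte reference genes were lower.

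The members lie in a few clusters of related genes. In the GRCm38 annotation, 11 Cyp2c members lie on chromosome 19 between 39287044 and 44029256, 5 Cyp2d members on chromosome 15 between 82370527 and 82794452, 4 Cyp4a members on chromosome 4 between 115486200 and 115622507, and 4 Cyp3a members on chromosome 5 between 137892933 and 146114978. The Cyp4f members divide between chromosome 17, with 6, and chromosome 8, with Cyp4f18 alone. Neighbours of a cluster can share sequence, which affects how reads are assigned. Of all 50-base windows of the longest transcript, 72.1% in Cyp2c40, 54.8% in Cyp2c69, 52.8% in Cyp2c67, 46.8% in Cyp4a32, 43.3% in Cyp2c68, 40.8% in Cyp2a5 and 40.5% in Cyp2d10 also occurred in a transcript of another gene, so the split of reads among these genes is uncertain. Lower shares, but at least 20%, were found in Cyp2a4 (38.0%), Cyp4a10 (30.5%), Cyp2c37 (30.1%), Cyp2d9 (29.0%), Cyp3a59 (28.0%) and Cyp3a25 (26.8%). The same held for Cyp4f16 (26.5%), Cyp2c54 (25.7%), Cyp4a31 and Cyp4f37 (21.7% each) and Cyp2a12 (20.4%). The split of reads is uncertain in these genes too. In Cyp2c70, Cyp2c23, Cyp2f2, Cyp3a11 and Cyp1b1 no window was shared.

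At 0 h, P450 transcripts summed to 1391, 1968 and 1710 CPM in replicates 1, 2 and 3. On the deposited FPKM, which divides by gene length and so allows levels of different genes to be compared, Cyp2e1 stood first with 127.4 ± 29.0 (SD, n = 3), followed by the fatty acid ω-hydroxylase Cyp4a10 with 121.9 ± 24.0, Cyp4b1 with 101.2 ± 17.7 and Cyp4a14 with 98.5 ± 17.3. Neighbours among these 4 did not differ beyond their spread. The next level was lower, with Cyp2f2 at 42.1 ± 13.9 FPKM and Cyp3a11 at 36.0 ± 7.50 FPKM.

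**Figure D1:**
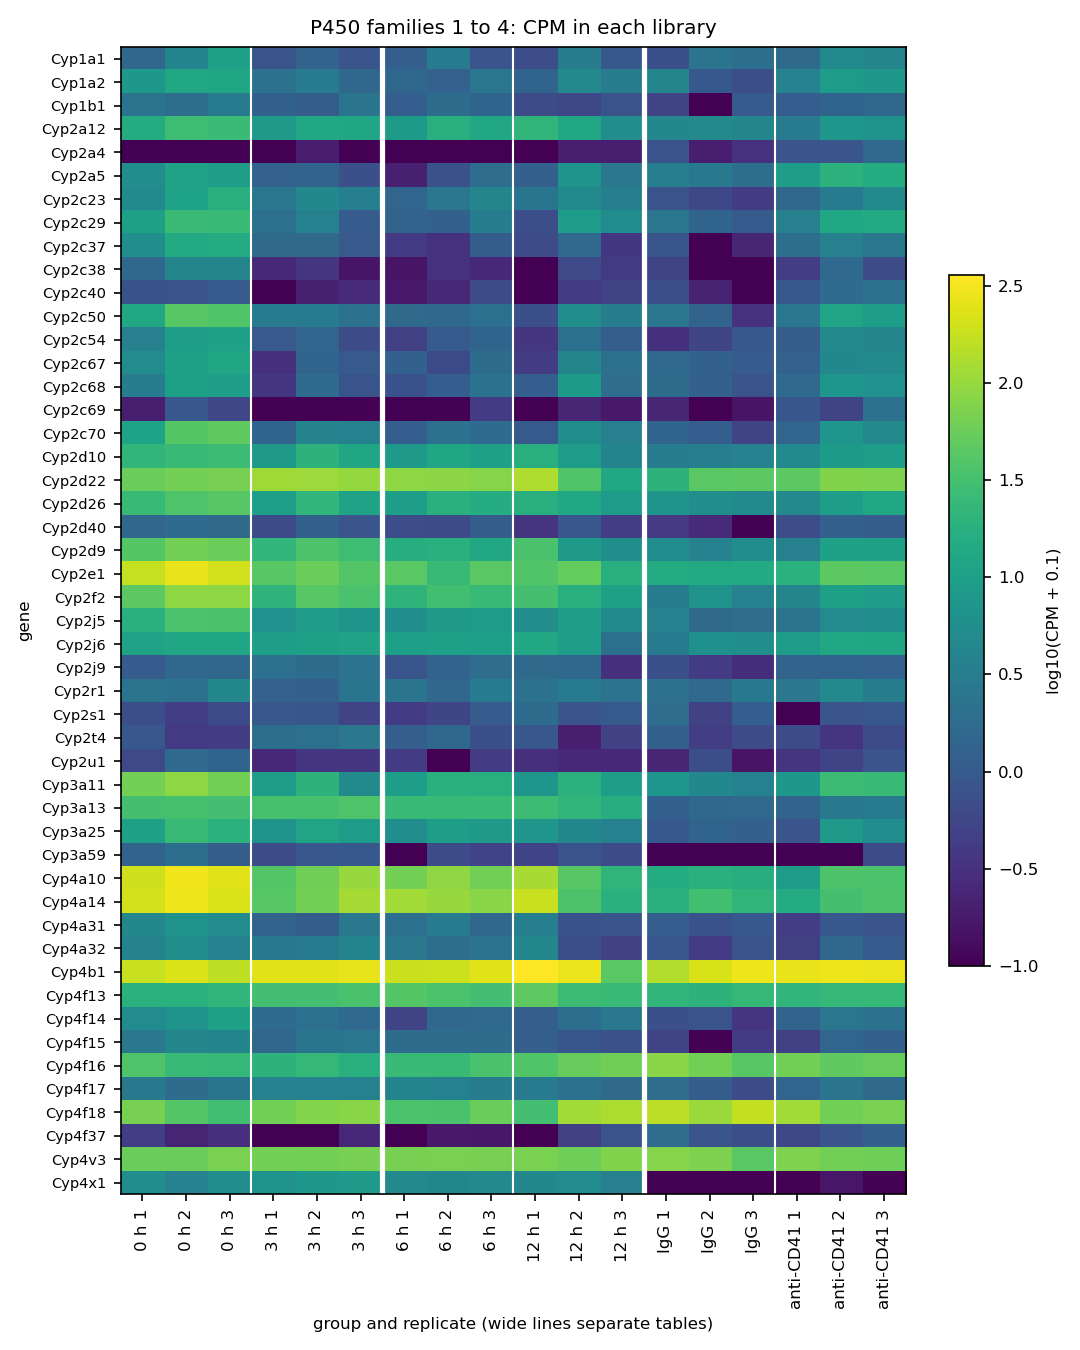
Each cell gives the level of one P450 gene (vertical axis) in one library (horizontal axis) as log10(CPM + 0.1), with the 6 groups in order and the wide white lines separating the 3 tables. At 0 h the Cyp2c, Cyp2e1, Cyp3a11 and Cyp4a genes are brighter than at 3 h, Cyp4b1 and Cyp4v3 are bright in nearly every library, and Cyp3a13 and Cyp4x1 are darker in the antibody table than in the time-course tables.

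At 3 h most hepatocyte-type members were lower than at 0 h. After scaling to all genes by TMM, 24 of 45 tested members were lower, 6 were higher and 15 did not pass edgeR's quasi-likelihood test at an adjusted p of 0.05. Of all genes tested, 23.0% were lower and 19.1% higher, 42.1% in either direction. The groups did not overlap in 35 of the 45, against 55.6% of all genes. The median log2 change was -0.98, beside -0.01 over all genes. Among the 38 members not on the list of P450s known outside hepatocytes, 35 were tested, of which 23 were lower and 4 higher (median -1.64). Of the 10 tested from that list, 1 was lower, 2 were higher and the median was 0.34. The summed P450 level went from 1690 ± 289 to 958.2 ± 106.7 CPM (SD, n = 3 in each), and its groups did not overlap. This sum was given no test. Cyp2a4, Cyp2c69, Cyp2u1 and Cyp4f37 were too low to be tested here. A member that passed the count filter through 1 group alone had to differ between the groups. Cyp2c38 and Cyp2c40 did so through 0 h.

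After TMM scaling, transcripts of the enzymes that activate acetaminophen were lower at 3 h. Cyp2e1 had 176, 273 and 206 CPM at 0 h and 42.2, 57.0 and 40.6 CPM at 3 h. Every 3 h library lay below every 0 h library, and the fall was 4.46-fold (log2 -2.16 ± 0.21 SE, edgeR adjusted p = 0.00193). Cyp3a11, the main inducible Cyp3a drug oxidase of mouse liver, had 64.1, 89.5 and 63.0 CPM at 0 h and 9.72, 19.5 and 4.93 CPM at 3 h. These groups were also apart (log2 -2.60 ± 0.45, adjusted p = 0.00609). Cyp1a2, which also oxidises caffeine, had 7.77, 13.6 and 12.5 CPM at 0 h and 2.08, 2.87 and 1.49 CPM at 3 h. That was a 4.98-fold fall (log2 -2.32 ± 0.30, adjusted p = 0.00309). Cyp2a5, which hydroxylates coumarin and nicotine, had 5.39, 11.2 and 9.56 CPM at 0 h against 1.20, 1.23 and 0.644 CPM at 3 h. It fell by 3.01 on the log2 scale (SE 0.36, adjusted p = 0.00259). These 4 kept their calls on this scale with each library left out in turn. Relative to hepatocyte reference genes, as given below, Cyp2e1 and Cyp1a2 did not pass. Cyp3a11 and Cyp2a5 passed there, but not in every fit that left out 1 library. Cyp2a12, a steroid and bile acid hydroxylase, was lower too, from 15.5, 27.9 and 26.3 CPM to 7.97, 12.9 and 12.6 CPM (log2 -0.98 ± 0.29, adjusted p = 0.0317), but its call needed every library other than 0 h replicate 1 (adjusted p 0.0589 to 0.104 without one of them). Of the other Cyp3a genes, Cyp3a13 was at 31.7, 32.7 and 31.3 CPM at 0 h against 33.2, 33.5 and 37.6 CPM, and it did not pass (log2 0.20, adjusted p = 0.199); nor did Cyp3a25 (log2 -0.89, adjusted p = 0.0729) or Cyp3a59 (log2 -0.83, adjusted p = 0.095).

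The RefSeq promoter of Cyp2e1 (GRCm38.p6, chr7:140763569-140763868, plus strand, 250 bases before to 50 after the gene's start) is shown because this gene leads the 0 h levels, with a TATAAA motif in capitals that begins 31 bases before the start.

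Cyp2e1: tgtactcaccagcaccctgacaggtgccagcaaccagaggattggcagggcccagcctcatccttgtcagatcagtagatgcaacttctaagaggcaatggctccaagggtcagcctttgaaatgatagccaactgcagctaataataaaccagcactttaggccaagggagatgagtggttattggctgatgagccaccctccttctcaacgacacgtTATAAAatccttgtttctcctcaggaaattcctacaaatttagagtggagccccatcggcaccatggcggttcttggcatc

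All 10 tested Cyp2c genes were lower at 3 h, and the 6 steepest falls among the members were theirs. This subfamily includes epoxygenases of arachidonic acid such as Cyp2c29 and Cyp2c50, and Cyp2c70, which makes muricholic bile acids in mice. Cyp2c50 had 12.9, 43.2 and 39.1 CPM at 0 h and 2.75, 2.88 and 2.07 CPM at 3 h. Cyp2c70 had 11.6, 40.6 and 48.8 CPM against 1.31, 3.82 and 3.59 CPM. In both genes the 0 h replicate 1 was the lowest of its group and still lay above all 3 h libraries. The falls were 11.7-fold for Cyp2c50 (log2 -3.55 ± 0.47, adjusted p = 0.00316) and 10.9-fold for Cyp2c70 (log2 -3.44 ± 0.62, adjusted p = 0.0069).

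Cyp2c29 had 10.3, 26.7 and 25.2 CPM at 0 h and 1.88, 3.50 and 0.965 CPM at 3 h (log2 -3.22 ± 0.52, adjusted p = 0.00508). Cyp2c67, Cyp2c37 and Cyp2c40 fell by 3.45, 3.06 and 3.01 on the log2 scale, and Cyp2c54 and Cyp2c68 by 3.01 and 3.00. Few counts underlie Cyp2c40, with 13.25, 14.63 and 18.54 expected counts at 0 h but 0, 2.1 and 3.01 at 3 h. The largest log2 value, -4.18 ± 0.61, belonged to Cyp2c38, which had 1.43, 3.98 and 4.07 CPM at 0 h but 0.157, 0.268 and 0.0574 CPM at 3 h, so it rests on few counts. Cyp2c23, whose product makes epoxides of arachidonic acid, had the smallest change of the subfamily: 4.93, 11.4 and 16.6 CPM at 0 h against 2.35, 4.25 and 3.27 CPM (log2 -1.65 ± 0.45, adjusted p = 0.0241). Its call was lost without replicate 2 or 3 of 0 h (adjusted p 0.0694 and 0.065) and without replicate 1 or 3 of 3 h (0.0716 and 0.0758), and that of Cyp2c68 without 3 h replicate 3 (0.0527).

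The promoter of Cyp2c70, which shares no 50-base transcript window with another gene, and that of Cyp3a11 are shown because both genes were lower at 3 h on each scale used here and both hold CAAAGTCCA, a motif of the hepatocyte nuclear factor HNF4. Promoter windows of RefSeq, GRCm38.p6, were found for 40 of the 49 members. The patterns described here, searched on both strands, were the TATA box (TATAAA), the core of the aryl hydrocarbon receptor element (GCGTG) with a longer form of it (TNGCGTG), and the patterns of C/EBP factors (TTGCNNAA), HNF4 (CAAAGTCCA), FOXA factors (TGTTTAC), D-box factors (TTATGCAA) and ETS factors (GAGGAAGT). The last were direct repeats spaced by 1 base, in a strict form made of AGGTCA units and in a looser form made of AGGNCA units. The longer receptor form contains the core, and a strict repeat is also a loose one. CAAAGTCCA occurred in 6 of the 40, namely Cyp2c40, Cyp2c67, Cyp2c68, Cyp2c69, Cyp2c70 and Cyp3a11, and in 0.475% of 32851 promoters. It was in 4 of 9 searched members lower on each scale and in 1 of 10 lower after TMM scaling only. None of 15 members not called after TMM scaling held it, nor did the 3 searched among the higher ones. A link of this motif to the changes was not tested. Cyp2c40, Cyp2c67, Cyp2c68 and Cyp2c69 are close relatives and are not independent cases. TATAAA, at any position in the window, occurred in 19 of the 40 members and in 13.6% of all promoters. For each pattern, members were counted by gene and the background by promoter window. The match begins 29 bases before the start in Cyp2c70 but 234 bases before it in Cyp3a11. A half-site of HNF1 (GTTAAT), also searched, occurred in 8 of the 40 and in 7.10% of all promoters. A match describes these letters and is no evidence of binding, and the patterns shown were picked after their matches were seen. In the sequences, capitals mark CAAAGTCCA and TATAAA or its reverse complement TTTATA. The Cyp2c70 window is chr19:40187237-40187536, minus strand, and the Cyp3a11 window is chr5:145879805-145880104, minus strand.

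Cyp2c70: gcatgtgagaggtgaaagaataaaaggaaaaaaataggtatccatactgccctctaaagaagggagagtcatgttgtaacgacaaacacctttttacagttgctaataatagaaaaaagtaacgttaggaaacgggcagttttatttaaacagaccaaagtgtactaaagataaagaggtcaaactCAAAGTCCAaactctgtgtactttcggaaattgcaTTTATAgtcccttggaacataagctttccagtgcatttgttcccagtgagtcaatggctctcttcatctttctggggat
Cyp3a11: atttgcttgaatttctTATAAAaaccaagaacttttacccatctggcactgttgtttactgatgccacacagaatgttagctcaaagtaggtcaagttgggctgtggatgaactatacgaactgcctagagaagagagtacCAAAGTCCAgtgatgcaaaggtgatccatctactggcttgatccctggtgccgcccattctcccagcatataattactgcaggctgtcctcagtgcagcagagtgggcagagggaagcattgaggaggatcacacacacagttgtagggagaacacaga

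The Cyp2d genes divided. Cyp2d22 had 56.8, 64.3 and 67.2 CPM at 0 h and 110, 107 and 97.3 CPM at 3 h. It rose 1.76-fold with no overlap (log2 0.81 ± 0.09, adjusted p = 0.00227). Cyp2d9, a testosterone hydroxylase, had 41.7, 64.5 and 56.2 CPM against 22.0, 36.3 and 28.4 CPM. It was lower (log2 -0.82 ± 0.23, adjusted p = 0.0277), as was Cyp2d26 (log2 -1.22 ± 0.33, adjusted p = 0.0249). Cyp2d10 (log2 -0.81 ± 0.30, adjusted p = 0.0681) and Cyp2d40 (log2 -0.85 ± 0.33, adjusted p = 0.0749) did not pass. The call of Cyp2d9 was lost without replicate 2 or 3 of 0 h (adjusted p 0.092 and 0.0639) and without replicate 1 or 3 of 3 h (adjusted p 0.0632 and 0.0824), and the same 4 libraries each decided that of Cyp2d26 (adjusted p 0.0651 to 0.0924).

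The Cyp2d9 promoter (chr15:82452127-82452426, plus strand) is printed because AGGNCA repeated after 1 base, an arrangement of the kind that nuclear receptors bind, was found in Cyp2d9, Cyp2d10 and Cyp2d40 and in 0.381% of all promoters. Capitals mark the repeat and TTTATA.

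Cyp2d9: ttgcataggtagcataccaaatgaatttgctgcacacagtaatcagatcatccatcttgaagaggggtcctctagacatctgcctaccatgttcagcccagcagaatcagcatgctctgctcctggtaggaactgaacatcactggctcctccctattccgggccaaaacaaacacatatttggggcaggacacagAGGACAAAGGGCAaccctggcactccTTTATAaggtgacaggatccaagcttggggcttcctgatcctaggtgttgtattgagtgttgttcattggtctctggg

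Cyp2f2, the naphthalene-oxidising form of the periportal lobule, had 46.0, 89.6 and 87.8 CPM at 0 h and 20.6, 42.3 and 33.6 CPM at 3 h. The groups were apart by a narrow margin, since the lowest 0 h library was near the highest 3 h library (log2 -1.12 ± 0.34, adjusted p = 0.0345). Without replicate 2 or 3 of 0 h the adjusted p was 0.109 and 0.0887, and without replicate 1 or 3 of 3 h it was 0.0718 and 0.0876, which ended the call each time. Cyp2j5, an epoxygenase of liver and kidney, had 17.9, 35.7 and 33.5 CPM against 6.17, 8.78 and 6.70 CPM. It fell 3.81-fold (log2 -1.93 ± 0.29, adjusted p = 0.00413), while its relatives Cyp2j6 (log2 -0.11 ± 0.14, adjusted p = 0.534) and Cyp2j9 (log2 0.64 ± 0.26, adjusted p = 0.0852) did not pass.

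The Cyp4a genes encode fatty acid ω-hydroxylases that the receptor PPARα induces. Cyp4a10 had 201, 298 and 246 CPM at 0 h and 40.2, 59.6 and 100 CPM at 3 h. Cyp4a14 had 207, 287 and 225 CPM against 42.6, 63.9 and 117 CPM. Both sets were apart, with 3 h replicate 3 the highest of its group each time. Cyp4a10 fell by 1.80 (SE 0.36, adjusted p = 0.00926) and Cyp4a14 by 1.59 (SE 0.39, adjusted p = 0.0168) on the log2 scale. The call of Cyp4a14 was lost without 0 h replicate 2 (adjusted p = 0.0572) or 3 h replicate 2 (adjusted p = 0.0592). Cyp4a31 was lower as well (log2 -1.64 ± 0.39, adjusted p = 0.0151), though not without 0 h replicate 2 (0.0561) or 3 h replicate 1 (0.0503). Cyp4a32 had 3.79, 5.51 and 3.55 against 2.64, 2.90 and 3.85 CPM (log2 -0.36 ± 0.27, adjusted p = 0.315).

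Among the remaining family 4 genes, Cyp4f14, a leukotriene B4 hydroxylase of mouse liver, fell 4.11-fold, from 5.09, 6.32 and 10.8 CPM to 1.66, 1.86 and 1.54 CPM (log2 -2.04 ± 0.31, adjusted p = 0.00418). Cyp4f15 did not pass (log2 -0.71, adjusted p = 0.0973). Cyp4f13 rose from 18.6, 18.3 and 21.9 CPM to 30.6, 31.1 and 34.5 CPM (log2 0.79 ± 0.12, adjusted p = 0.00482). Cyp4f17 (log2 0.77 ± 0.22, adjusted p = 0.0271) and Cyp4x1 (log2 0.71 ± 0.21, adjusted p = 0.0335) were higher in the full set of libraries. The call of Cyp4f17 needed every library other than 0 h replicate 1 (adjusted p 0.0592 to 0.09 without one of them), and that of Cyp4x1 every library other than replicate 1 of each group (0.0619 to 0.104). Cyp2t4 had 0.822, 0.301 and 0.312 CPM at 0 h against 1.83, 1.91 and 2.47 CPM (log2 2.18 ± 0.42, adjusted p = 0.00832). It overlaps Egln2 on the opposite strand, as Cyp4x1 overlaps Cyp4x1os, Cyp4f18 overlaps Zfp961, Cyp2f2 overlaps Gm15883 and Cyp2s1 overlaps Gm26707, and the sources used here do not say whether counting used strand, so reads of such pairs cannot be told apart.

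Cyp4b1, which hydroxylates medium-chain fatty acids and activates lung toxins, was the member with the highest level at 3 h. It had 179, 226 and 162 CPM at 0 h and 250, 248 and 261 CPM at 3 h. All 3 h libraries lay above all 0 h libraries (log2 0.49 ± 0.16, adjusted p = 0.0394). The call rested on the full set: leaving out 0 h replicate 1, 0 h replicate 3, or any 3 h library gave an adjusted p of 0.0622 to 0.117, and the replicate number as a block 0.0664. The summed sinusoidal endothelial markers were 5097, 6394 and 5346 CPM at 0 h and 6890, 6700 and 7480 CPM at 3 h, and 3 of the 8 were higher and 1 lower; their part in the Cyp4b1 result was not tested. The Cyp4b1 promoter (chr4:115647672-115647971, minus strand) is given beside those of genes that fell, and this contrast of single windows was not tested. None of these patterns occurs in this window, which says only that those letters are not there.

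Cyp4b1: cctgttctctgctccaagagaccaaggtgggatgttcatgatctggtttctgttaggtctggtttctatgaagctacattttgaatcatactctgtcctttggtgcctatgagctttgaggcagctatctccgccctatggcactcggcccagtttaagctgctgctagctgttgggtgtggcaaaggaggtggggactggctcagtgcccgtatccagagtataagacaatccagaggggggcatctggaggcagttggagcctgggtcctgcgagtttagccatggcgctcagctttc

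Among the members known from cells other than hepatocytes, Cyp4v3, Cyp4f18 and Cyp4f16 did not pass. Cyp4v3, a fatty acid ω-hydroxylase, had 56.6, 55.6 and 69.6 CPM at 0 h and 64.6, 63.5 and 66.6 CPM at 3 h (log2 0.18 ± 0.11, adjusted p = 0.22). Cyp4f18 had 66.8, 39.7 and 30.3 CPM against 61.9, 77.2 and 84.4 CPM. Its groups overlapped through 0 h replicate 1 (log2 0.78 ± 0.30, adjusted p = 0.0761), and without that library it was higher (log2 1.17, adjusted p = 0.00773). That library also had the highest marker sums of neutrophils and monocyte-derived cells at 0 h. The summed neutrophil markers were 1562, 997.3 and 533.1 CPM at 0 h and 1892, 3032 and 3544 CPM at 3 h, where 6 of the 8 were higher and none lower, and Ly6g was the 1 marker below 1 CPM in some libraries. The markers of monocyte-derived cells summed to 2984, 1473 and 818.2 CPM against 368.6, 726.3 and 598.5 CPM, with 3 of 6 lower. Their part in the Cyp4f18 values was not tested. Cyp4f16 had 37.1, 25.2 and 23.5 against 20.0, 23.3 and 16.8 CPM (log2 -0.45 ± 0.21, adjusted p = 0.126).

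The low members of this kind gave no firm change. Cyp1b1, an extrahepatic form (log2 -0.56 ± 0.38, adjusted p = 0.269), Cyp2r1, a vitamin D hydroxylase (log2 -0.78 ± 0.41, adjusted p = 0.165), and Cyp2s1 (log2 0.54 ± 0.36, adjusted p = 0.266) did not pass. Cyp1a1, the classical target of the aryl hydrocarbon receptor, had 1.37, 3.87 and 10.7 CPM at 0 h and 0.744, 1.27 and 0.766 CPM at 3 h. It was lower (log2 -2.43 ± 0.72, adjusted p = 0.0333), but the 0 h values spread widely and the call was lost when any library other than 0 h replicate 1 was left out (adjusted p 0.0625 to 0.106). Reads of Cyp1a1 and Cyp1a2 were partly shared: the expected counts of the pair summed to a whole number, within 0.01, in 12 of 12 time-course libraries, while neither did so by itself.

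Most of the hepatocyte reference genes were also lower at 3 h after TMM scaling. Of the 12 reference genes, 11 were lower and Alb did not pass, with a median log2 change of -1.26. Their geometric mean was 128.6, 247.4 and 261.4 CPM at 0 h and 47.5, 99.8 and 71.6 CPM at 3 h. The 0 h replicate 1 was low in P450 genes too: it had the lowest value of its group in 29 of the 36 hepatocyte-type members that reached 10 counts in a 0 h library. For this reason the P450 genes were also compared relative to the reference genes.

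Scaled to the 12 hepatocyte genes, 10 of 45 members were lower, 12 were higher and 23 did not pass. On this scale 1.71% of all genes were lower and 66.6% higher, 68.3% in all, and the median of all genes moved to 1.48. The 10 were 8 Cyp2c genes (Cyp2c29, Cyp2c37, Cyp2c38, Cyp2c50, Cyp2c54, Cyp2c67, Cyp2c68 and Cyp2c70) with Cyp2a5 and Cyp3a11. The largest of these, beside the sparse Cyp2c38, were Cyp2c67 (log2 -2.06 ± 0.62, adjusted p = 0.00386), Cyp2c70 (log2 -1.90 ± 0.55, adjusted p = 0.00274) and Cyp2c50 (log2 -1.86 ± 0.55, adjusted p = 0.00332). The other 14 genes that were lower after TMM scaling did not pass on this scale. Among them, Cyp2e1 had log2 -0.66 ± 0.57 (adjusted p = 0.271), Cyp1a2 -0.79 ± 0.56 (adjusted p = 0.189), Cyp4a10 -0.36 ± 0.57 (adjusted p = 0.553) and Cyp2f2 0.35 ± 0.55 (adjusted p = 0.545).

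These calls rest on few libraries. Without 0 h replicate 2, 6 members were called (3 lower), in a fit that called 12.7% of all genes. Without 0 h replicate 3, 8 were (3 lower), beside 17.7% of all genes. Without 0 h replicate 1, 23 were (9 lower), beside 83.7% of all genes. The number of members called thus moved with the share of all genes called. Cyp2c38 and Cyp2c67 were lower in all 6 fits that left out 1 library, and the other 8 missed the threshold in at least 1 of them. Cyp2c38, however, passed the count filter here through 0 h alone, and so had to be lower. Scaled to Alb alone, 11 members were lower and 3 higher, and all 10 kept their call, where 14.9% of all genes were called.

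**Figure D2:**
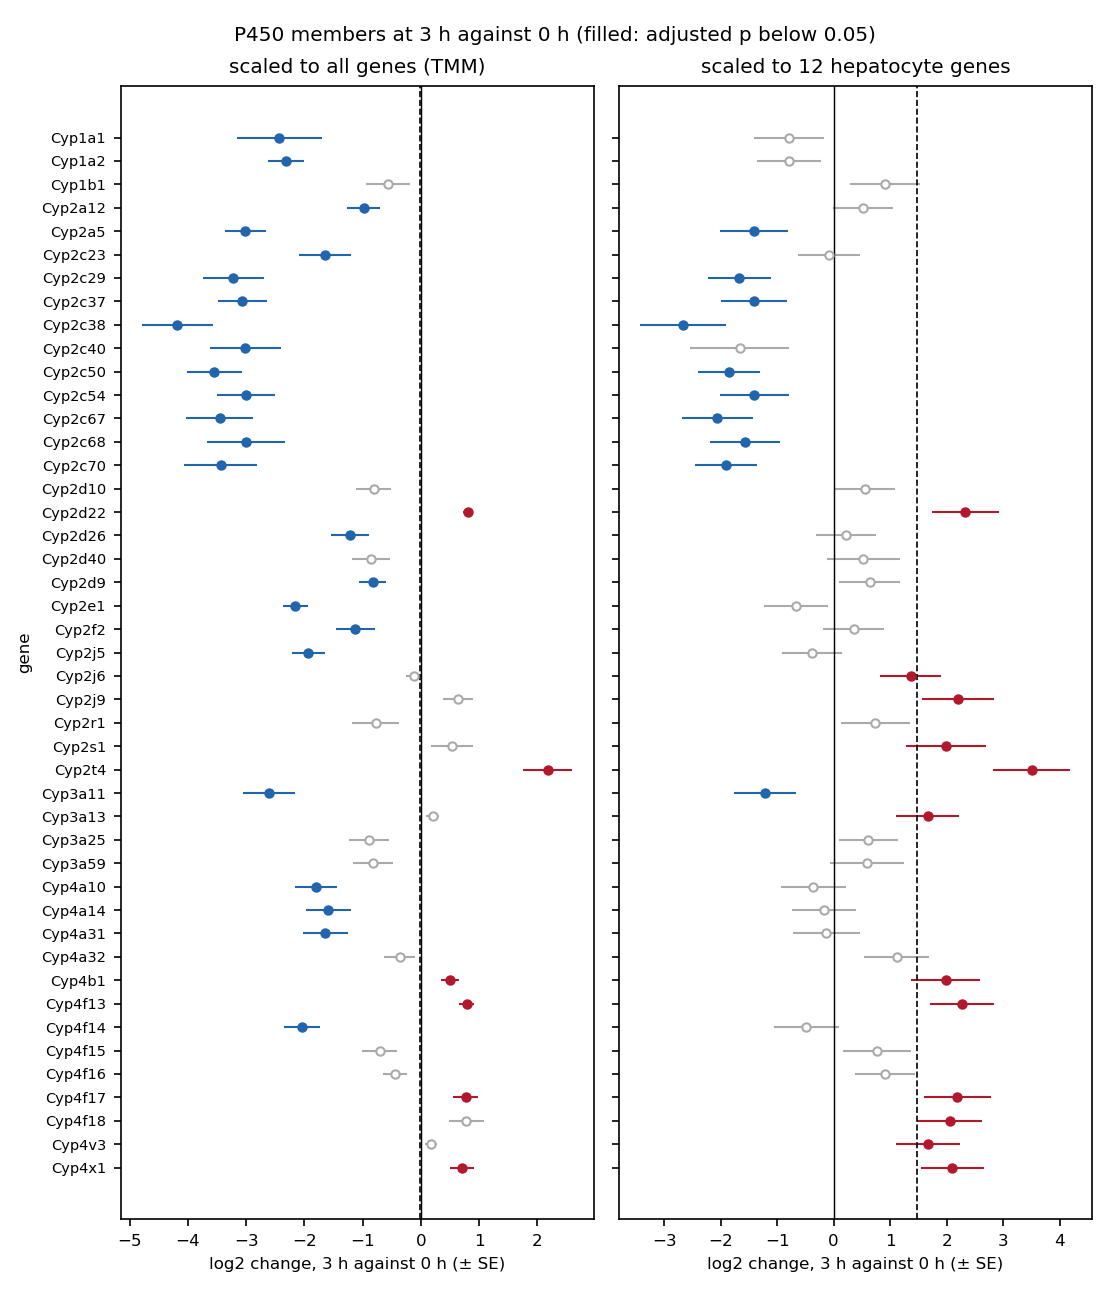
Log2 change at 3 h against 0 h for the 45 tested P450 genes (vertical axis), with bars of 1 SE, after TMM scaling (left) and relative to 12 hepatocyte reference genes (right). Filled points passed an adjusted p of 0.05, blue for lower and red for higher, and the dashed line is the median of all genes (-0.01 left, 1.48 right). The Cyp2c genes lie to the left of 0 in both panels. Cyp2e1 and the Cyp4a genes other than Cyp4a32 lie nearer 0 in the right one, and Cyp4a32 lies to the right of 0 there.

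The subfamilies were also summed in each library. The Cyp2c level divided by the reference was 0.462, 0.700 and 0.699 at 0 h and 0.240, 0.207 and 0.184 at 3 h, with no overlap. The summed Cyp2d level without Cyp2d22 was 0.694, 0.522 and 0.488 of the reference at 0 h and 0.860, 0.788 and 0.734 at 3 h, so it lay above its 0 h values. The Cyp4a sum was 3.24, 2.42 and 1.83 times the reference at 0 h and 1.83, 1.28 and 3.13 times at 3 h, and these overlapped. Cyp2e1 was compared with Cyp2f2 because they mark opposite ends of the lobule. The ratio of Cyp2e1 to Cyp2f2 was 3.82, 3.05 and 2.35 at 0 h and 2.04, 1.35 and 1.21 at 3 h. The mean log2 ratio went from 1.58 ± 0.35 to 0.57 ± 0.39 (SD, n = 3), a difference of -1.01 with no overlap (exact permutation p = 0.1, two-sided, the smallest that this design allows).

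**Figure D3:**
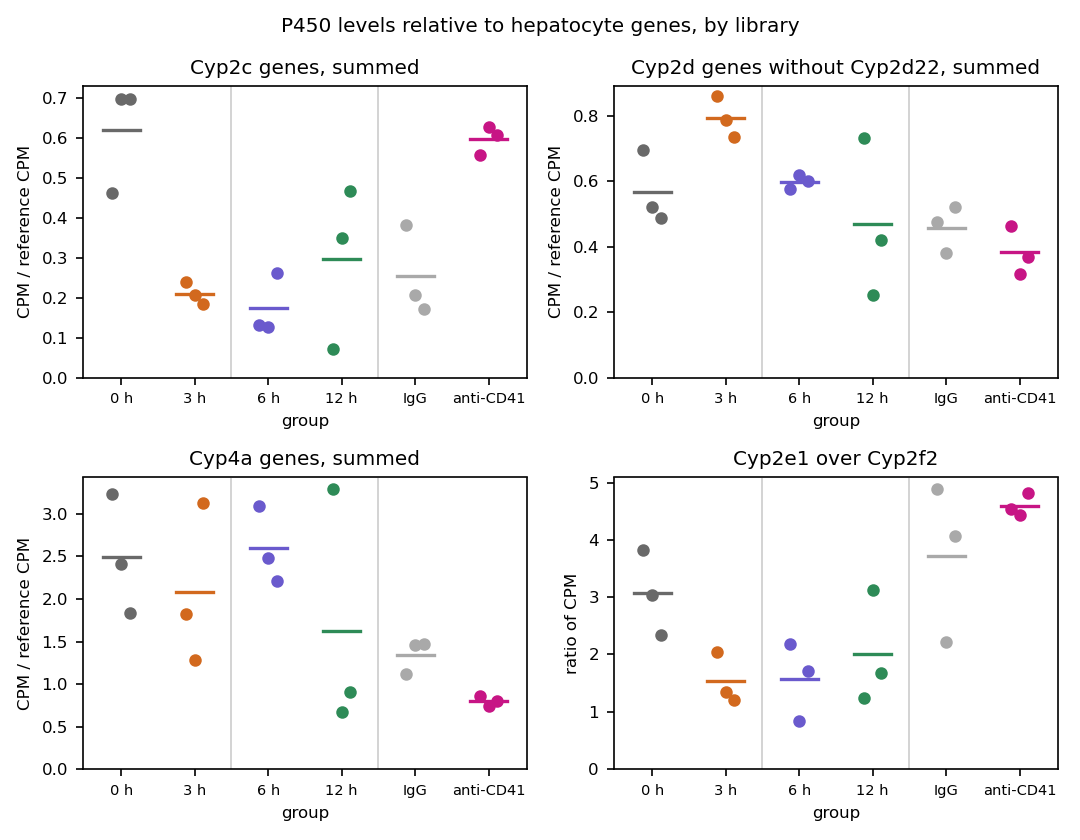
Each point is 1 library, each bar the mean of a group, and grey lines separate the 3 tables. The vertical axes give the summed CPM of the Cyp2c, Cyp2d (without Cyp2d22) or Cyp4a genes divided by the geometric mean CPM of 12 hepatocyte reference genes, or the ratio of Cyp2e1 to Cyp2f2, and the Cyp2c ratio lies between 0.462 and 0.700 at 0 h and between 0.184 and 0.240 at 3 h, and with anti-CD41 it lies between 0.557 and 0.627, above all IgG libraries.

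Other genes of P450 biology were measured beside the members at 3 h, and are given after TMM scaling first. Of all genes tested, 23.0% were lower and 19.1% higher on that scale. Of 6 electron donors, 3 were lower and none higher: cytochrome b5 (Cyb5a) had 155, 313 and 265 CPM at 0 h and 55.5, 84.0 and 67.4 CPM at 3 h, a 3.35-fold fall (adjusted p = 0.00514), and the reductase Por did not pass (log2 0.30, adjusted p = 0.224). Of 12 genes of heme synthesis and breakdown, 6 were lower and 1 higher. Alas1, the rate-limiting enzyme of heme synthesis, fell by 2.27 on the log2 scale (adjusted p = 0.00811), and Cpox and Alad both by 1.76, whereas the heme oxygenase gene Hmox1 was higher (log2 0.68, adjusted p = 0.0346). The median changes were -0.61 for the electron donors and -0.56 for the heme genes. Relative to the hepatocyte reference, where the median of all genes was 1.48, no gene of either list was lower. That scaling was planned for P450 members only, and it called 1.71% of all genes lower and 66.6% higher. On that scale 2 electron donors (Por and Cyb5r3) and 5 heme genes (Urod, Ppox, Fech, Hmox1 and Blvrb) were higher, the list medians were 0.94 and 0.98, and Alas1 did not pass (log2 -0.75, adjusted p = 0.216).

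Transcription factors that control P450 genes were mostly lower after TMM scaling, and fewer were relative to the hepatocyte reference. Of 18 nuclear receptors and hepatocyte factors, 11 were lower and 2 higher (median -1.90) on the first scale, and 5 were lower and 3 higher (median -0.47) on the second. Of all genes, 23.0% were lower and 19.1% higher on the first, and 1.71% and 66.6% on the second. Nr1i3, the CAR receptor that drives Cyp2b and Cyp2c genes, had 4.63, 10.7 and 10.3 CPM at 0 h and 0.688, 1.11 and 1.14 CPM at 3 h (log2 -3.04 ± 0.40, adjusted p = 0.00318), and it was lower relative to the hepatocyte reference too (log2 -1.50). Hnf4a fell by 2.56 (adjusted p = 0.0137) and Ppara by 1.48 (adjusted p = 0.0181) on the log2 scale after TMM scaling, but relative to the reference neither passed (log2 -1.12, adjusted p = 0.0638, and 0.06, adjusted p = 0.919). Arnt, the partner of the aryl hydrocarbon receptor, was higher (log2 0.80, adjusted p = 0.0029), and so was Tiparp (log2 1.82, adjusted p = 0.00592), 1 of 4 tested targets of that receptor outside the P450 families, none of which was lower.

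Zonation markers outside the P450 families fell in part at either end of the lobule. Of all genes, 23.0% were lower and 19.1% higher after TMM scaling, and 1.71% and 66.6% relative to the hepatocyte reference. After TMM scaling, of 9 tested pericentral genes 6 were lower and 1, Glul, was higher (log2 1.18, adjusted p = 0.00338), with Rgn at 21.5, 51.0 and 58.8 CPM at 0 h and 1.20, 2.07 and 0.590 CPM at 3 h. Of 8 periportal genes 4 were lower and none higher, such as Cps1 (log2 -1.94, adjusted p = 0.012). The medians were -1.52 and -1.44. Relative to the hepatocyte reference, 3 pericentral genes were lower (Rgn, Gulo and Tbx3) and 3 higher (Glul, Slc1a2 and Axin2), and 2 periportal genes were lower (Hal and Gls2) and 6 did not pass, with medians of -0.02 and 0.05. Of 12 tested P450 genes of other families, 5 were lower and 1 higher, and Cyp7a1, the rate-limiting enzyme of bile acid synthesis, fell by 4.03 on the log2 scale (adjusted p = 0.00672). Relative to the reference, Cyp7a1 was the 1 gene of these that was lower (log2 -2.52, adjusted p = 0.0013), and 5 were higher (Cyp20a1, Cyp27a1, Cyp46a1, Tbxas1 and Ptgis).

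Between 6 h and 12 h no member passed the test. None of 43 tested members was called by edgeR, and none of 14010 genes was either (0%), although 726 genes had an unadjusted p under 0.05 and DESeq2 called 3 genes, none a member. The median log2 change of the members was -0.07. The groups did not overlap in 4 members, Cyp1b1, Cyp4f15, Cyp4f16 and Cyp4f17, against 9.28% of all genes. Cyp4f16 had 25.3, 24.5 and 34.4 CPM at 6 h and 38.7, 52.5 and 60.7 CPM at 12 h (log2 0.84 ± 0.25, edgeR adjusted p = 0.697), every 12 h library above every 6 h library. Relative to the hepatocyte reference no member was called, and 0.136% of all genes were. The P450 sum was 815.6, 866.2 and 889.4 CPM at 6 h and 1235, 907.5 and 516.5 CPM at 12 h.

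In several members the 12 h libraries lay far apart from each other. Cyp4a14 had 114, 101 and 83.3 CPM at 6 h but 180, 36.7 and 18.0 CPM at 12 h, and Cyp2d22 had 89.5, 87.0 and 82.1 CPM but 136, 38.4 and 13.0 CPM. In both genes 12 h replicate 1 was above, and replicates 2 and 3 below, every 6 h library. Cyp4b1 had 184, 193 and 236 CPM at 6 h and 358, 284 and 43.6 CPM at 12 h, so that replicate 3 alone was far below the others. That library also had the lowest endothelial marker sum, 1267 CPM beside 8882 and 4083 CPM in replicates 1 and 2. Cyp4f18 had 35.1, 33.6 and 55.2 CPM at 6 h and 30.8, 115 and 129 CPM at 12 h (log2 1.14 ± 0.51, adjusted p = 0.697), high in replicates 2 and 3. The summed markers of monocyte-derived cells were 371.2, 3005 and 3483 CPM in the same order at 12 h. The part of these cells in the P450 values was not tested.

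Cyp2c29 and Cyp2a5 were lowest in 12 h replicate 1, where Cyp4a14 was highest. Cyp2c29 had 0.620, 9.09 and 5.21 CPM and Cyp2a5 had 1.14, 6.71 and 2.43 CPM in replicates 1, 2 and 3. Cyp2c37 was lowest in replicate 3, with 0.580, 1.56 and 0.279 CPM. At 6 h Cyp2c29 and Cyp2a5 had 1.25, 1.17 and 3.00 CPM and 0.104, 0.662 and 1.74 CPM. The groups overlapped in both genes, and Cyp2c29 (log2 1.44 ± 0.85) and Cyp2a5 (log2 2.01 ± 0.94) each had an adjusted p of 0.697. Cyp2e1 had 44.0, 25.4 and 43.9 CPM at 6 h and 39.1, 52.2 and 17.4 CPM at 12 h (log2 -0.07 ± 0.41, adjusted p = 0.961).

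**Figure D4:**
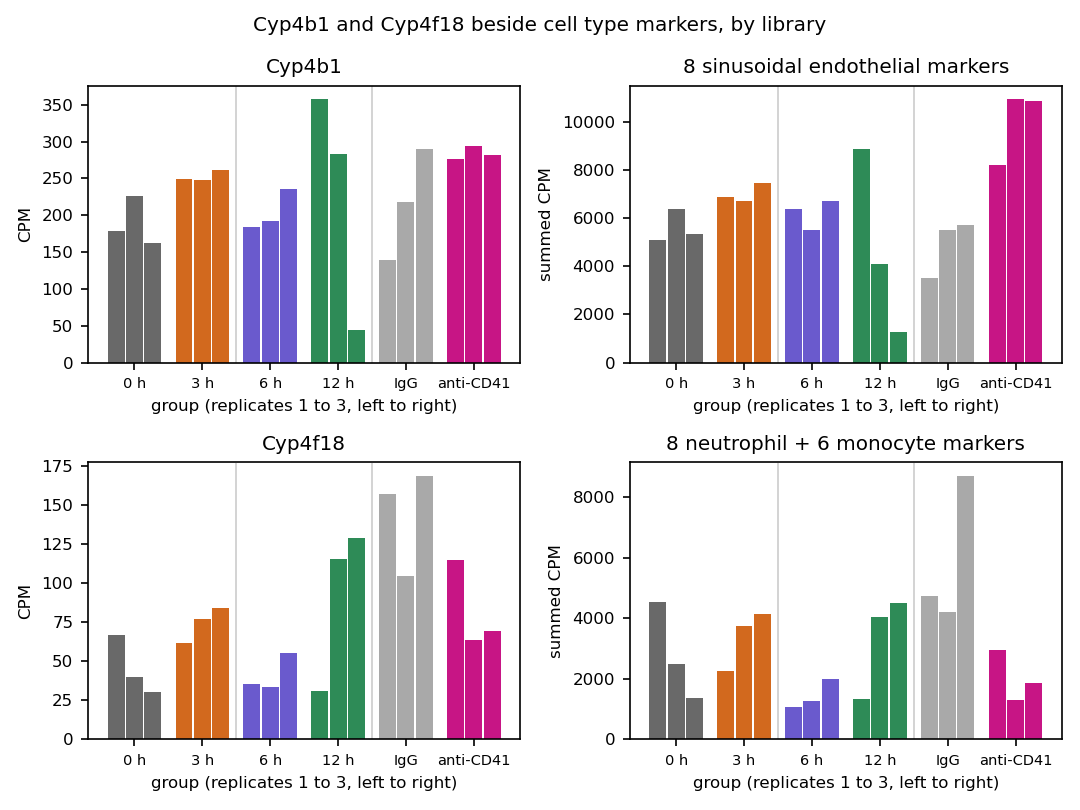
Bars give, for each of the 18 libraries, the CPM of Cyp4b1 and Cyp4f18 (left) and the summed CPM of 8 sinusoidal endothelial markers and of 8 neutrophil with 6 monocyte-derived cell markers (right), with replicates 1 to 3 from left to right in each group. Cyp4b1 and the endothelial sum are both lowest in 12 h replicate 3, at 43.6 and 1267 CPM, and Cyp4f18 is high in 12 h replicates 2 and 3 and in the IgG libraries.

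With anti-CD41, 39 of 47 tested members had a positive log2 change relative to IgG, but none passed the test. Relative to the hepatocyte reference the split was 24 above 0 and 23 below, with a median of 0.09 beside -0.74 over all genes. Of these 47 (Cyp3a59 and Cyp4x1 were too low) 0 were called by edgeR after TMM scaling at an adjusted p of 0.05, and 0.0738% of all genes were, although 2757 genes had an unadjusted p under 0.05. The median log2 change on that scale was 1.08, beside 0.01 over all genes, and 17 members did not overlap between the groups, against 25.0% of all genes. DESeq2 called 15 members, 14 higher and 1 lower, where it called 5.52% of all genes. Cyp2c69, 1 of the 14, became a member through the anti-CD41 libraries alone. Cyp2d40 reached 10 counts here in the anti-CD41 libraries alone (19, 36 and 39 counts, against 8, 5 and 0 with IgG). It therefore had to be higher as well. Both genes are counted among the 39 and in the median. The hepatocyte reference was 32.1, 33.7 and 26.7 CPM with IgG and 29.2, 93.8 and 92.6 CPM with anti-CD41, so that anti-CD41 replicate 1 resembled the IgG libraries. In 35 of 38 hepatocyte-type members, each with at least 10 counts in an anti-CD41 library, that replicate was the lowest of its group. Without it, edgeR called 6 members, all higher (Cyp2a5, Cyp2c29, Cyp2e1, Cyp3a11, Cyp3a25 and Cyp4a10), and 0.720% of all genes.

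Cyp2a5 came nearest to the threshold. It had 3.35, 2.61 and 1.82 CPM with IgG and 9.68, 19.3 and 15.7 CPM with anti-CD41. The groups were apart, replicate 1 included (log2 2.43 ± 0.32, adjusted p = 0.095), and over the other edgeR fits the adjusted p ranged from 0.0295 to 0.475. DESeq2 gave 7.13e-10. Cyp2a5 was the 1 member called with the replicate number as a block, where 2.58% of all genes were called, and with no expression filter, where 0.0829% were. Cyp2e1 had 15.3, 14.3 and 14.9 CPM against 18.4, 46.1 and 44.6 CPM (log2 1.19 ± 0.33, adjusted p = 0.166), and without anti-CD41 replicate 1 it was higher (log2 1.50, adjusted p = 0.0205). Cyp3a11 had 7.32, 4.45 and 3.55 CPM against 7.67, 27.1 and 25.4 CPM (log2 1.89 ± 0.49, adjusted p = 0.161). In both genes anti-CD41 replicates 2 and 3 were well above IgG and replicate 1 was just above it.

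The Cyp2c genes stood at log2 1.46 to 3.92 in this comparison, none called. Among them, Cyp2c69 had 26, 14 and 77 counts with anti-CD41 but 4, 0 and 2 with IgG. It became a member through the anti-CD41 libraries alone, and so had to be higher with anti-CD41. Cyp2c29 had 2.36, 1.29 and 0.908 CPM with IgG and 3.48, 13.6 and 14.8 CPM with anti-CD41 (log2 2.73 ± 0.60, adjusted p = 0.143). Cyp2c50 had 2.46, 1.26 and 0.220 CPM against 2.42, 11.8 and 9.61 CPM (log2 2.54 ± 0.84, adjusted p = 0.201). The former did not overlap between the groups and the latter did, through replicate 1. Relative to the hepatocyte reference, the summed Cyp2c level was 0.382, 0.207 and 0.173 with IgG and 0.557, 0.627 and 0.608 with anti-CD41. In that measure replicate 1 stood with the other anti-CD41 libraries. The Cyp4a sum moved the other way, from 1.12, 1.46 and 1.47 times the reference to 0.863, 0.746 and 0.796 times, also with no overlap. These sums were given no test.

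On the reference scale no single member was called (0.496% of all genes were). Without anti-CD41 replicate 1, 3 members were higher than the reference (Cyp2a5, Cyp2c23 and Cyp2c29) and 13 lower, among them Cyp4a10 and Cyp4a14, in a fit that called 76.7% of all genes. The ratio of Cyp2e1 to Cyp2f2 was 4.89, 2.22 and 4.07 with IgG and 4.53, 4.43 and 4.82 with anti-CD41, a mean log2 difference of 0.42 with overlap (exact permutation p = 0.3). Cyp2f2 had 3.14, 6.46 and 3.66 CPM against 4.07, 10.4 and 9.25 CPM (log2 0.75 ± 0.41, adjusted p = 0.38), and Cyp2d9 had 5.21, 3.68 and 5.42 CPM against 3.44, 10.8 and 10.5 CPM (log2 0.68 ± 0.43, adjusted p = 0.438).

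**Figure D5:**
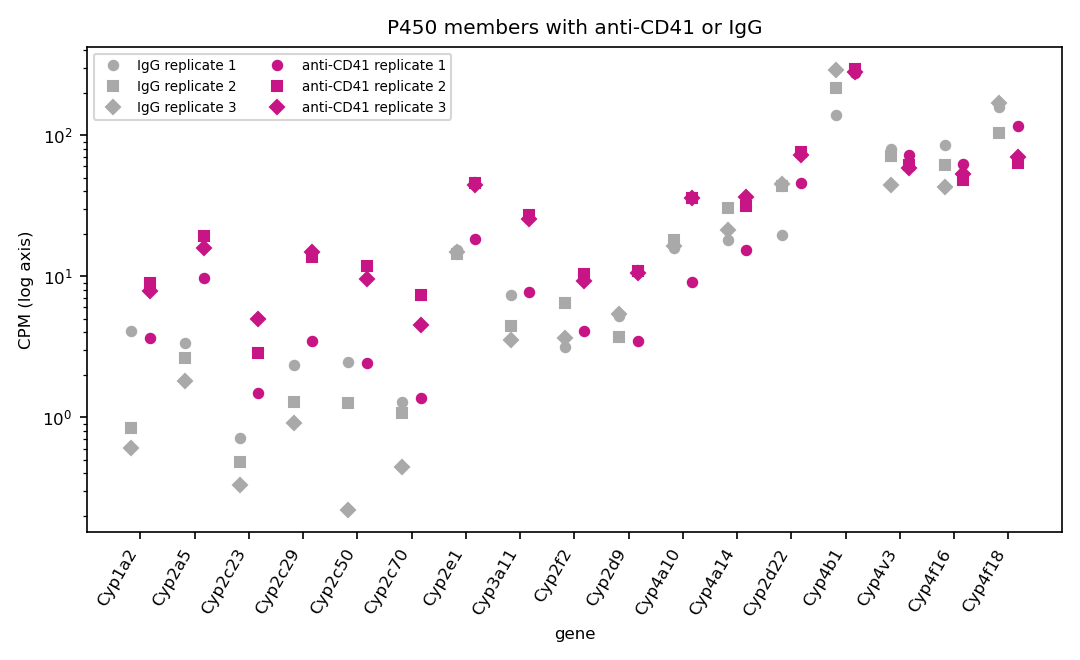
CPM on a log axis for 17 P450 genes (horizontal axis) in the 3 IgG libraries (grey) and the 3 anti-CD41 libraries (pink), with a symbol for each replicate number. Replicates 2 and 3 with anti-CD41 lie above all IgG libraries for Cyp2a5, the Cyp2c genes, Cyp2e1 and Cyp3a11, and replicate 1 is the lowest anti-CD41 library for most genes; Cyp4b1, Cyp4v3, Cyp4f16 and Cyp4f18 do not show this order.

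Members known from other cells are given beside the marker sums of those cells. Cyp4f18 had 158, 104 and 169 CPM with IgG and 115, 63.4 and 69.5 CPM with anti-CD41, and the groups overlapped (log2 -0.90 ± 0.29, adjusted p = 0.196). The summed neutrophil markers were 1285, 1083 and 4931 CPM against 812.8, 367.6 and 679.6 CPM, and those of monocyte-derived cells 3447, 3109 and 3789 CPM against 2133, 917.7 and 1170 CPM. Cyp4b1 had 140, 218 and 290 CPM with IgG and 276, 294 and 282 CPM with anti-CD41 (log2 0.28 ± 0.27, adjusted p = 0.599). The endothelial sum was 3529, 5516 and 5734 CPM against 8204, 10950 and 10890 CPM. The part of these cells in the P450 values was not tested. Cyp4v3 (log2 -0.11 ± 0.19) and Cyp4f16 (log2 -0.29 ± 0.22) did not pass either.

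Among the other P450 families Cyp26b1, which degrades retinoic acid, was the 1 gene of 12 called: 33.7, 24.9 and 47.3 CPM with IgG and 248, 276 and 221 CPM with anti-CD41, a 6.49-fold rise (log2 2.70 ± 0.27, adjusted p = 0.0441). None of 6 electron donors, 12 heme genes or 18 nuclear receptors and hepatocyte factors was called. Their medians were 0.26, 0.10 and 0.23. The pericentral and periportal lists had medians of 1.20 and 0.75, again with no call, beside 1.11 for the hepatocyte reference genes. Relative to that reference, where the median of all genes was -0.74, Cyp26b1 did not pass (log2 1.93, adjusted p = 0.449). The medians were -0.59, -0.70 and -0.76 for the first 3 lists and 0.27 and -0.24 for the zonation lists.

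Across the time course, levels from the separate tables are set side by side as description only. Cyp4b1 was first by mean FPKM at 3 h, 6 h and 12 h, with 135.5 ± 3.86, 109.4 ± 14.9 and 122.2 ± 87.9 (SD, n = 3). In 12 h replicate 3 it had 23.3 FPKM, below Cyp4f18 (71.8), Cyp4f16 (27.7) and Cyp4v3 (26.6). Cyp2e1, which led by mean at 0 h, was at 27.2 ± 5.26, 22.0 ± 6.27 and 21.2 ± 10.3 FPKM, and so at 3 h did not differ beyond the spread from its neighbours Cyp4a14 (30.6 ± 15.9) and Cyp4a10 (32.8 ± 15.1). The share of Cyp4b1 in all P450 counts was 9.50% to 12.9% at 0 h, 24.8% to 29.9% at 3 h, 22.2% to 26.5% at 6 h, and 29.0%, 31.2% and 8.44% in 12 h replicates 1, 2 and 3. Cyp4v3 stayed between 55.6 and 75.8 CPM in all 12 time-course libraries. In the antibody table the members known outside hepatocytes made up most of the P450 sum with IgG, where they had 460.3 to 553.4 CPM and the other members 156.7 to 178.8 CPM. With anti-CD41 they had 533.0, 480.4 and 475.2 CPM in replicates 1, 2 and 3, and the other members 186.6, 414.6 and 404.7 CPM.

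Some levels cannot be compared between tables, because the antibody table holds whole counts by Ensembl gene and the time-course tables hold expected counts by Entrez gene. Cyp3a13 was at 16.1 to 37.6 CPM in the time course but 1.18 to 2.94 CPM in the antibody groups. Cyp4x1 was at 3.40 to 8.18 CPM in the time course and at 0 in 5 of the 6 antibody libraries. Cyp2a4 was at 0 to 0.101 CPM in the time course and 0.0968 to 1.56 CPM in the antibody groups, and it shares 38.0% of its 50-base windows with other genes, chiefly Cyp2a5. Values of the remaining low members, Cyp2c69, Cyp2u1, Cyp4f37 and Cyp3a59, stayed at or below 2.01 CPM in every library.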

How the data were processed

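The authors deposited 3 gene tables. The time-course tables hold expected counts and FPKM, per the file headers, and the antibody table holds whole counts per gene, per the file headers. Reads were aligned with HISAT2 to GRCm38, per the submitters' processing notes in versions not given in the sources used here. Nor do these give the counting program, its annotation or its use of strand. Deposited TPM and average columns were not used.

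Expected counts were rounded to whole numbers for the count tests. The antibody comparison used the deposited counts, and each test stayed within 1 table. In R 4.3.3, low genes were removed by filterByExpr (minimum count 10) and groups were compared by the quasi-likelihood test of edgeR 4.0.16 with TMM scaling, or with scaling to the geometric mean of count + 1 over 12 hepatocyte genes. P-values were adjusted by Benjamini-Hochberg over all genes tested, with a threshold of 0.05, and every adjusted p in the text is from edgeR unless DESeq2 or limma is named. Only the groups compared entered a fit, with no covariate. CPM were computed from the deposited counts and the library totals. Log2 ratios of Cyp2e1 to Cyp2f2 used CPM + 0.5 and a two-sided exact permutation test. The planned design assumed counts in every table, but expected counts were found in the time-course tables. It also planned the scaling to hepatocyte genes for P450 members only. Values given on that scale for other genes depart from this plan, since many of those genes are not particular to hepatocytes. Fits were tested on simulated data.

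Alternatives were leaving out each library, DESeq2 1.42.0, other size factors, no filter, a replicate block, other references, and limma 3.58.1 on log2(deposited FPKM + 1). Genes named were a panel of known P450s, the 12 highest members and up to 8 with the largest called falls and rises per comparison, and up to 4 genes of each pathway list. Other members were named after their values were seen, to account for each subfamily. The members and lists were chosen with earlier results of these data known. Sequences and positions are from RefSeq, GRCm38.p6, and from the GENCODE M21 annotation of the same assembly. Counting depth limits precision for members below about 1 CPM.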

Additional observations from a re-analysis of the deposited data

How the results depend on the processing

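The numbers of P450 members called at 3 h by TMM scaling stayed within 1.5 times of 30 under every alternative run, from 20 to 32 with 1 library left out. With 1 library left out, 24.4% to 43.0% of all genes were called on that scale. Relative to the hepatocyte genes, the 22 calls at 3 h became 34 with the replicate block and 14 with Alb alone as reference. They ranged from 6 to 23 with 1 library left out. Of all genes, 91.6% were called with the block, 14.9% with Alb alone and 12.7% to 83.7% with 1 library left out. For anti-CD41 against IgG, the 0 calls by TMM scaling became 15 with DESeq2, 1 with no expression filter and 1 with the replicate block. These fits called 5.52%, 0.0829% and 2.58% of all genes. With 1 library left out, the calls of members ranged from 0 to 6, beside 0% to 0.720% of all genes. Relative to the hepatocyte genes they ranged from 0 to 16, beside 0.0197% to 76.7% of all genes. No member was called at 12 h against 6 h under any alternative. The sign of the reference-scaled change at 3 h turned with Alb alone for Cyp2d9 (-0.044) and Cyp2f2 (-0.36), and for Cyp4a14, which ranged from -0.634 to 0.0898 with 1 library left out, without 0 h replicate 1 (0.0898) or 3 h replicate 2 (0.0895); none of these 3 passed the test. The cause of these shifts was not tested. Whether same-numbered replicates pair the samples cannot be decided from 3 correlations per comparison. Those of their deviations were 0.0247, 0.273 and -0.126 at 3 h. The values were 0.271, -0.0464 and 0.179 at 12 h, and 0.089, 0.174 and 0.0368 in the antibody groups. With the replicate number as a block, 30 members were called at 3 h by TMM scaling, 3 higher and 27 lower, beside 35.6% of all genes. Cyp4b1, Cyp4f17 and Cyp4x1 were then not called (edgeR adjusted p 0.0664, 0.0534 and 0.0597) and Cyp2r1 was (0.0477). Over all alternatives, single genes lost their call 59 times, gained one 18 times and kept their side of the threshold 532 times.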
